A study of Homo sapiens with 15 samples.

Results

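MAGI1, MAGI2, MAGI3, DLG1, DLG3, DLG5, MPP5 and TJP1 encode scaffold proteins of the cell membrane and its junctions. They were taken by name, matched through GENCODE v29 symbols to the Ensembl identifiers of the deposited tables, and make up 8 of the 58735 genes listed there. The rule uses their names and no measured value, but the group of genes was proposed with earlier results of these data known. RNA was sequenced from HEK293T, a human embryonic kidney cell line used in the study as the supporting cell in co-culture with tumor cells, and the libraries came from HEK293T cells only. The 15 libraries fell into 5 groups of 3 culture wells each. The clones MAGI2-CKO, C9orf89-CKO, RHBDD2-CKO and MLPH-CKO carried Cas9 with a guide RNA against the gene in the name and are labelled as knockouts of it. Non-target, the control, carried Cas9 with a guide RNA that has no target and is labelled wild type. According to the methods, all 5 were clones obtained by limiting dilution, so each group was 1 clone. P-values below therefore measure how wells of a single clone vary, and do not cover variation among clones made with 1 guide. The 4 comparisons with Non-target share its 3 wells, so that each of them depends on those wells.

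Membrane-associated guanylate kinases (MAGUKs) are scaffold proteins built of PDZ domains, usually an SH3 or WW domain, and a guanylate kinase domain that has lost its enzyme activity. They hold receptors, adhesion molecules and polarity proteins together on the inner side of the membrane, at tight and adherens junctions of epithelia and at synapses of neurons. The MAGI proteins carry an inverted domain order, with the guanylate kinase domain near the start of the protein. The DLG proteins belong to the Scribble polarity module, MPP5 (also called PALS1) holds the Crumbs complex together, and TJP1 (also called ZO-1) links tight junction strands to actin.

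MAGI2 was itself the target in MAGI2-CKO, and the guide is shown with its site in MAGI2 because it shows where in the gene a cut is expected. No edit was measured in these data. In the MAGI2 site the capitals mark the PAM, the NGG that Cas9 needs beside a site. The closest NGG-flanked sites in exons of the related genes are shown for comparison, and there the capitals mark bases that differ from the guide.
MAGI2 guide: tgacaacctctacctccgca
MAGI2 site: tgacaacctctacctccgcaCGG
MAGI3 site: tAacaGTctctTcTtcTgcaagg
DLG5 site: AAacaGccCctaccCccAGaggg
TJP1 site: tgacCGcctGtCTGAccgcGggg
The MAGI2 site lies at chr7:79007096-79007118 (GRCh38, minus strand, the strand of the gene) in coding exon 2 of the 22 exons of the principal MAGI2 transcript. It differed from the guide at 0 positions. The site lay in exons of 6 of the 42 annotated MAGI2 transcripts and in the coding part of 4 of the 21 coding ones. The expected cut came after 406 of the 4365 coding bases of that transcript, or 9.30% of its coding sequence. The closest site in MAGI3 (chr1:113684487-113684509, minus strand, in an exon but outside coding sequence) differed at 6 positions and that in DLG5 (chr10:77790940-77790962, plus strand, likewise outside coding sequence) at 7. The closest in TJP1 (chr15:29766330-29766352, plus strand, in coding exon 5) differed at 8 positions. The closest sites in DLG1, DLG3 and MPP5 also differed at 8 positions, and those in MAGI1 at 9. Sequence between exons was not searched.

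The authors' values were read as FPKM, fragments per kilobase of exon, scaled to the size of the library, because the value of each gene multiplied by its exon length was a whole number of steps in every library, and the steps matched library totals scaled by median-of-ratios size factors. The values of a library summed to 244028 to 295139, and not to 1 fixed total as TPM would. The libraries stood for 15517856 to 19489918 fragments on genes. Within each group the library of replicate 1 stood apart. A chi-square of the counts of 2 wells, divided by the number of genes, reached 14.6 to 24.9 where 1 of the wells was replicate 1. Between replicates 2 and 3 it stayed at 2.40 to 6.54. Calls of the scaffold genes against Non-target and of the named related genes, and counts of calls, are therefore also given with all 5 libraries numbered 1 left out. This setting was chosen after seeing the data. The calls of MAGI2-AS3 and the single calls between clones are given for all 15 libraries only. A gene entered the test if 3 or more libraries held 0.5 FPKM or more, which 16175 genes did. They were fitted with limma on log2(FPKM + 0.1), and fold changes below are on that scale. A gene was called past the threshold at a Benjamini-Hochberg adjusted p under 0.05, over all genes tested in the comparison. Of the scaffold genes, 7 were tested, and MAGI2 lay under the filter.

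MAGI2, the target of 1 of the guides, was close to silent in all 5 groups (ENSG00000187391, chr7:78017057-79453574, minus strand). In Non-target its 3 wells held 0.119, 0.102 and 0.123 FPKM, which stand for 60, 50 and 68 fragments. MAGI2-CKO held 0.0899, 0.0523 and 0.0618 FPKM, from 55, 32 and 38 fragments. The MAGI2-CKO wells all lay under the Non-target wells, and so did those of 2 other clones. C9orf89-CKO, which carried no guide against MAGI2, held 0.0749, 0.0740 and 0.0666 FPKM, and RHBDD2-CKO 0.0576, 0.0974 and 0.0936. In MLPH-CKO, with 0.0660, 0.109 and 0.0761 FPKM, 1 well overlapped with Non-target. The ratio of mean MAGI2 level to Non-target was 0.593 in MAGI2-CKO, 0.627 in C9orf89-CKO, 0.723 in RHBDD2-CKO and 0.731 in MLPH-CKO. In two-sided exact permutation tests p was 0.1 in RHBDD2-CKO, MAGI2-CKO and C9orf89-CKO, the smallest that 3 wells against 3 allow, and 0.2 in MLPH-CKO. In the limma fit without a filter the adjusted p was 0.201 in MAGI2-CKO and 0.308 to 0.472 in the other clones. Neither test passed its threshold, which the permutation test cannot do with 3 wells against 3, so that no change of MAGI2 RNA is called here. The level of RNA does not say whether the reading frame was cut. At the protein level, the paper reports loss of MAGI2 in HEK293T MAGI2-CKO by flow cytometry. It also counted MAGI2 among the candidates highly expressed in HEK293T, defined as 0.1 nTPM or more in a public database.

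On the opposite strand, the long noncoding RNA gene MAGI2-AS3 overlaps MAGI2. It is 1 of 13 annotated genes that overlap MAGI2, of which 11 lie on the opposite strand, and the only one of the 13 that passed the filter. Its mean level was 2.56 ± 0.476 FPKM in Non-target (SD, n = 3) and 2.57 ± 0.301 in MLPH-CKO. It was 1.89 ± 0.156 FPKM for C9orf89-CKO, 1.80 ± 0.117 for MAGI2-CKO and 1.69 ± 0.160 for RHBDD2-CKO. MAGI2-AS3 fell by 0.48 on the log2 scale in MAGI2-CKO (adjusted p = 0.0120, limma), by 0.56 in RHBDD2-CKO (adjusted p = 0.00503) and by 0.40 in C9orf89-CKO (adjusted p = 0.0362). Its log2 fold change in MLPH-CKO was 0.02 (adjusted p = 0.949). The library kit is not stated to keep the strand, so that reads of MAGI2 and MAGI2-AS3 cannot be told apart where their exons overlap.

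MAGI1 and MAGI3, the other MAGI genes, carried nearly all MAGI RNA. Among the 3 MAGI genes, MAGI3 made up 61.1% ± 0.348 of the summed FPKM in Non-target (SD, n = 3), MAGI1 37.6% ± 0.287 and MAGI2 1.33% ± 0.120. In the clones the mean share of MAGI3 was 63.3% to 66.3% and that of MAGI1 32.8% to 35.6%.
MAGI1 (ENSG00000151276, chr3:65353525-66038834, minus strand) was measured at 3.74, 2.78 and 3.30 FPKM in Non-target and at 2.93, 2.52 and 2.33 in C9orf89-CKO, and 1 C9orf89-CKO well overlapped with Non-target. Its log2 fold change was -0.32 in C9orf89-CKO (SE 0.12, adjusted p = 0.0740). MLPH-CKO had -0.26 (adjusted p = 0.139), MAGI2-CKO -0.20 (adjusted p = 0.228) and RHBDD2-CKO -0.06 (adjusted p = 0.741). None passed the threshold in the fit with group terms alone. With a term for replicate number added to the limma fit, MAGI1 passed in C9orf89-CKO (adjusted p = 0.0152) and MLPH-CKO (adjusted p = 0.0378). In C9orf89-CKO it passed with single wells left out, where the log2 fold change was -0.43 without replicate 2 of Non-target (adjusted p = 0.0300) and -0.41 without replicate 1 of C9orf89-CKO (adjusted p = 0.0426). Without replicate 2 of Non-target it also passed in MLPH-CKO, at -0.37 (adjusted p = 0.0493). Other fits with 1 library left out gave smaller falls. The log2 fold change of MAGI1 ranged from -0.43 to -0.22 in C9orf89-CKO (limma adjusted p up to 0.232). It ranged from -0.37 to -0.16 in MLPH-CKO (adjusted p up to 0.399) and from -0.31 to -0.10 in MAGI2-CKO (adjusted p up to 0.575). MAGI1 had the lowest level of the 7 tested scaffold genes, with a mean of 2.90 FPKM over all libraries.
MAGI3 (ENSG00000081026, chr1:113390749-113685923, plus strand) was highest in RHBDD2-CKO, at 6.89, 6.03 and 5.76 FPKM, against 6.11, 4.56 and 5.27 in Non-target. Within each of the 5 groups the MAGI3 value of replicate 1 was the highest. The log2 fold change of MAGI3 in RHBDD2-CKO was 0.23 (SE 0.13, adjusted p = 0.182), and it was 0.26 with the replicate 1 libraries left out (adjusted p = 0.0325). With a term for replicate number added to the limma fit, the adjusted p was 0.00996. With 1 library left out at a time the log2 fold change ranged from 0.13 to 0.33, with limma adjusted p of 0.0691 to 0.522. In the other clones the log2 fold change of MAGI3 lay between -0.13 and -0.01, with adjusted p of 0.481 or more. A processed pseudogene, AL391058.1, lies within MAGI3 on the same strand, with 11 to 80 fragments per library.

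**Figure D1:**
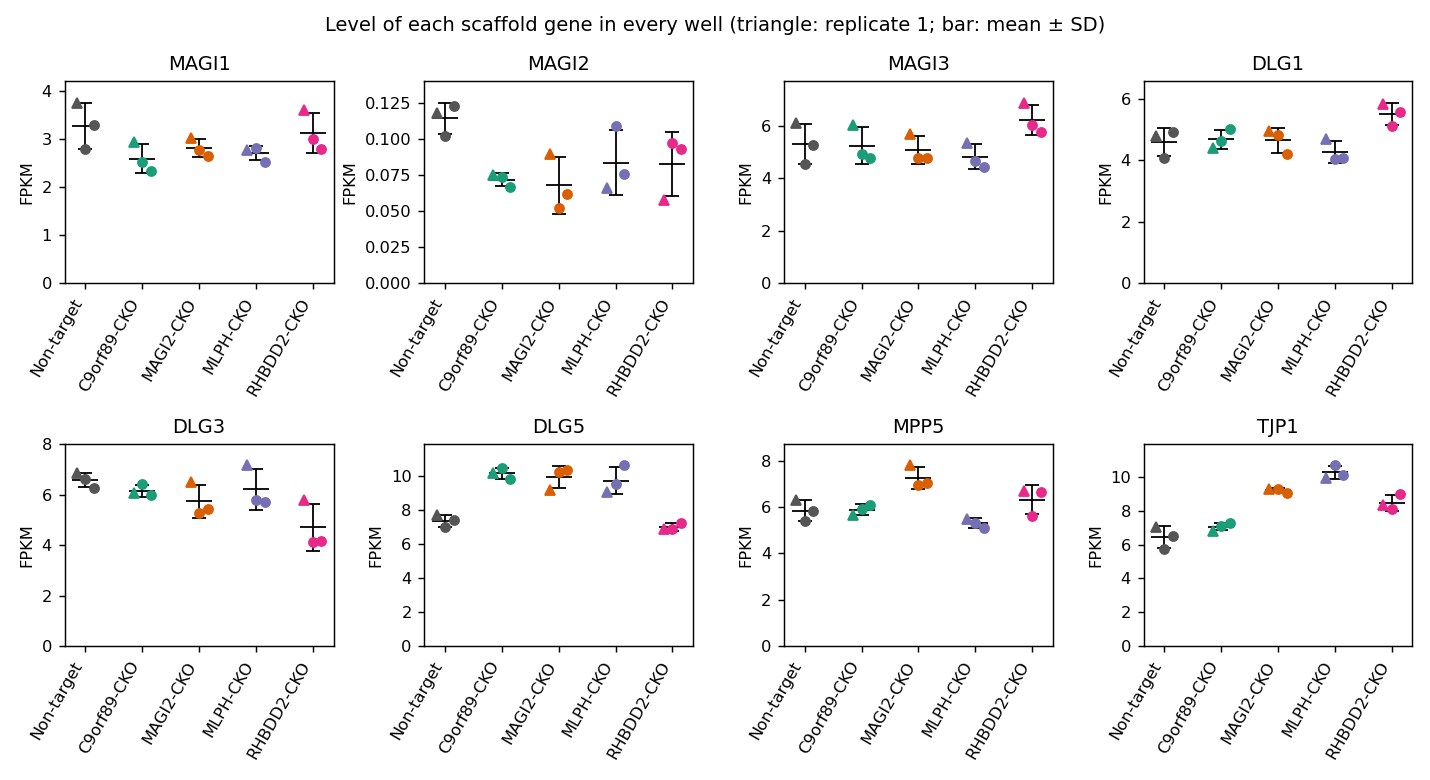
FPKM of the 8 scaffold genes (1 panel each, y axis from 0) in every well of the 5 groups on the x axis, with replicate 1 as a triangle, replicates 2 and 3 as circles, and the bar at the mean ± SD of 3 wells. DLG5 sits between 9.09 and 10.6 FPKM in the 3 clones other than RHBDD2-CKO and at most at 7.71 in Non-target and RHBDD2-CKO, while MAGI2 is at most 0.123 FPKM in every group.

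DLG5 was raised in every clone but RHBDD2-CKO. DLG5 (ENSG00000151208, chr10:77790791-77926526, minus strand) encodes a large MAGUK found at cell contacts and near the cilium. It was measured at 7.71, 7.01 and 7.41 FPKM in Non-target. C9orf89-CKO held 10.2, 10.5 and 9.86 FPKM, MAGI2-CKO 9.22, 10.3 and 10.4, and MLPH-CKO 9.09, 9.53 and 10.6. All 9 wells of these clones lay above all Non-target wells. RHBDD2-CKO, at 6.88, 6.90 and 7.28 FPKM, overlapped with Non-target. DLG5 rose by 0.46 on the log2 scale in C9orf89-CKO (SE 0.07, adjusted p = 0.000392), or 1.37-fold. MAGI2-CKO followed with 0.43 (adjusted p = 0.000398) and MLPH-CKO with 0.40 (adjusted p = 0.000936), or 1.34-fold and 1.32-fold. In RHBDD2-CKO it was -0.07 (95% interval -0.22 to 0.08, adjusted p = 0.477).

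DLG3 fell in RHBDD2-CKO, the only fall of a scaffold gene past the threshold in the fit with group terms alone. DLG3 (ENSG00000082458, X chromosome, 70444861 to 70505490, plus strand), also called SAP102, anchors NMDA receptors at synapses. Its wells in Non-target held 6.86, 6.62 and 6.28 FPKM. RHBDD2-CKO held 5.80, 4.14 and 4.18 FPKM, all under Non-target, with replicate 1 well above the other RHBDD2-CKO wells. DLG3 fell by 0.49 on the log2 scale in RHBDD2-CKO (SE 0.13, adjusted p = 0.0101), and by 0.62 with the replicate 1 libraries left out (adjusted p = 0.000260). With only the 6 libraries of RHBDD2-CKO and Non-target in the fit the adjusted p was 0.0525. In MAGI2-CKO, at 6.49, 5.29 and 5.42 FPKM, the log2 fold change was -0.20 (adjusted p = 0.252), and it was -0.26 without the replicate 1 libraries (adjusted p = 0.0110). In C9orf89-CKO and MLPH-CKO the log2 fold change of DLG3 was -0.09 in both, with adjusted p of 0.636 and 0.652.

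DLG1 (ENSG00000075711, chr3:197042560-197299300, minus strand), the human counterpart of the Drosophila Discs large tumor suppressor, passed the threshold in none of the 4 clones in the fit with group terms alone. Its values were 4.77, 4.07 and 4.93 FPKM in Non-target and 5.84, 5.12 and 5.56 in RHBDD2-CKO. The RHBDD2-CKO wells all lay above Non-target, by 0.26 on the log2 scale (SE 0.10), yet the adjusted p was 0.0536. Across the 25 alternative settings that adjusted p ran from 0.0373 to 0.211, and in 7 of them it passed. The log2 fold change was 0.02 in MAGI2-CKO (adjusted p = 0.911), 0.03 in C9orf89-CKO (adjusted p = 0.871) and -0.10 in MLPH-CKO (adjusted p = 0.476).

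TJP1 was raised in 3 clones as well, but not in the same 3 as DLG5. TJP1 (ENSG00000104067, chr15:29699367-29968865, minus strand) was measured at 7.05, 5.76 and 6.54 FPKM in Non-target. MLPH-CKO held 9.97, 10.7 and 10.2 FPKM, MAGI2-CKO 9.29, 9.27 and 9.07, and RHBDD2-CKO 8.35, 8.10 and 9.003. All 9 of these wells lay above all Non-target wells. C9orf89-CKO, at 6.83, 7.12 and 7.27 FPKM, overlapped with Non-target. The log2 fold change was 0.67 in MLPH-CKO (SE 0.07, adjusted p = 1.86e-05). MAGI2-CKO showed 0.51 (adjusted p = 0.000106), RHBDD2-CKO 0.39 (adjusted p = 0.000994) and C9orf89-CKO 0.14 (adjusted p = 0.181). With 1 library left out the value in C9orf89-CKO ranged from 0.06 to 0.20, with limma adjusted p of 0.0521 to 0.582. The rise in MLPH-CKO, 1.59-fold, was the largest change of a tested scaffold gene against Non-target. A processed pseudogene on the opposite strand, HMGN2P5, overlaps TJP1, with 39 to 105 fragments per library, and it was past the threshold in none of the clones. The share of fragments on mitochondrial genes, often read as a sign of RNA quality, was 3.11% ± 0.709 in MLPH-CKO (SD, n = 3), 2.79% ± 0.441 in MAGI2-CKO, 2.28% ± 0.707 in C9orf89-CKO, 1.94% ± 0.597 in Non-target and 1.70% ± 0.0388 in RHBDD2-CKO. It was thus highest on average in the clones where TJP1 rose most, and above the Non-target mean in the 3 clones where DLG5 rose, while in RHBDD2-CKO, where TJP1 rose too, it lay below. The wells of Non-target, from 1.57% to 2.63%, overlapped with those of every clone, and the part of this share in the results was not tested.

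MPP5 rose in MAGI2-CKO. MPP5 (ENSG00000072415, chr14:67241109-67335819, plus strand) was measured at 6.31, 5.39 and 5.85 FPKM in Non-target and at 7.80, 6.94 and 7.03 in MAGI2-CKO, with no overlap between the groups. Its log2 fold change there was 0.31 (SE 0.08, adjusted p = 0.0114). With replicate 2 of Non-target left out it was 0.25, and the adjusted p was 0.0510. Elsewhere the log2 fold change of MPP5 was -0.14 (MLPH-CKO, adjusted p = 0.245), 0.01 (C9orf89-CKO, adjusted p = 0.940) and 0.11 (RHBDD2-CKO, adjusted p = 0.342). MPP5 overlaps ATP6V1D, a subunit gene of the vacuolar proton pump on the opposite strand, whose log2 fold change in MAGI2-CKO was -0.14 (adjusted p = 0.239).

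By clone, 1 of the 7 tested scaffold genes was past the threshold in C9orf89-CKO, where 26.0% of all tested genes were. In MAGI2-CKO 3 of 7 were called, beside 36.1% of all tested genes, in MLPH-CKO 2 of 7 beside 30.1%, and in RHBDD2-CKO 2 of 7 beside 34.1%. With so many genes past the threshold in each clone, these counts do not set the scaffold genes apart from the other genes. Of the 8 calls in the 4 comparisons, 7 were rises, and these came from 3 genes, DLG5, TJP1 and MPP5, set against the same 3 Non-target wells. Among all tested genes, 2091 of 4210 calls were rises in C9orf89-CKO, 2747 of 5835 in MAGI2-CKO, 2350 of 4865 in MLPH-CKO and 2813 of 5511 in RHBDD2-CKO. The median log2 fold change over the 7 genes was 0.11 in RHBDD2-CKO, 0.02 in MAGI2-CKO, 0.01 in C9orf89-CKO and -0.10 in MLPH-CKO, and over all tested genes it was between -0.01 and 0.00 in each clone. Without the replicate 1 libraries the counts were 4 in MAGI2-CKO, 3 in RHBDD2-CKO, 2 in MLPH-CKO and 1 in C9orf89-CKO, where 40.4%, 42.0%, 36.9% and 32.4% of all tested genes were called. The 8 scaffold genes summed to 39.6 ± 3.20 FPKM in Non-target (SD, n = 3), 44.8 ± 1.58 in MAGI2-CKO, 43.4 ± 1.03 in MLPH-CKO, 41.9 ± 0.439 in C9orf89-CKO and 41.5 ± 2.55 in RHBDD2-CKO.

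**Figure D2:**
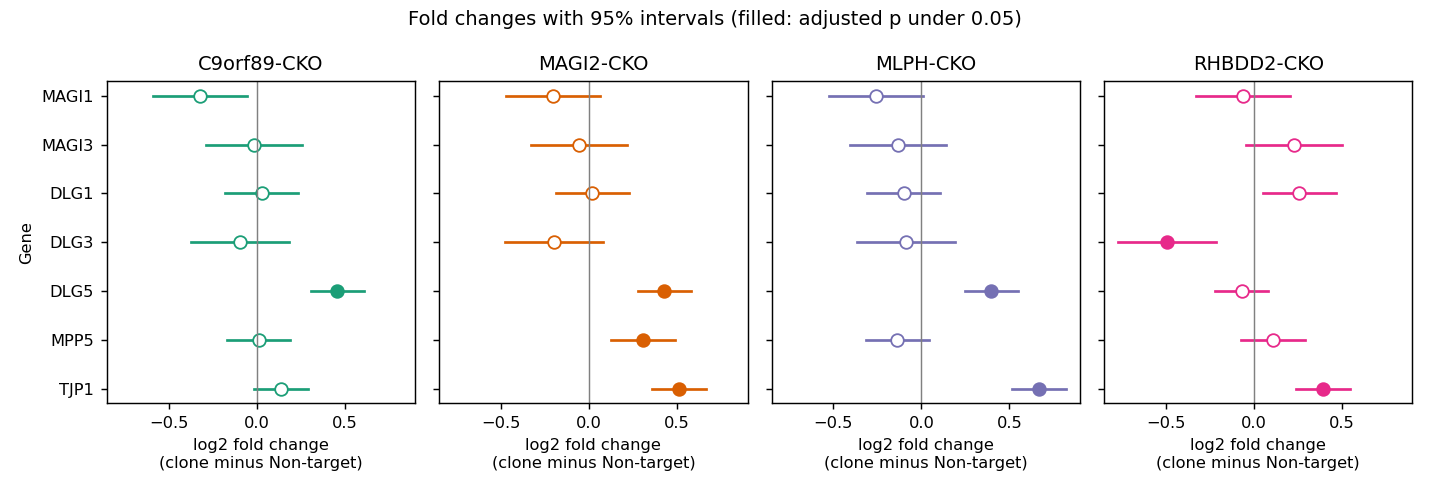
Log2 fold change of the 7 tested scaffold genes (y axis) in each clone against Non-target (x axis, log2(FPKM + 0.1) scale), with lines for the 95% interval and filled points for an adjusted p under 0.05. TJP1 in MLPH-CKO lies farthest to the right, at 0.67, and DLG3 in RHBDD2-CKO farthest to the left, at -0.49.

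The clones were also compared with each other, in 6 pairs. Of the 42 pairings of gene and clone pair, 14 were past the threshold, where 27.6% of all tested pairings were. The count was 16 without the replicate 1 libraries, beside 32.8% of all. With 1 library left out it was 10 to 15, so that some of the calls below do not hold in every such fit. MAGI2-CKO against C9orf89-CKO gave 2 of the 7 genes (22.5% of all tested genes), MLPH-CKO against C9orf89-CKO 1 (14.2%) and RHBDD2-CKO against C9orf89-CKO 3 (29.3%). MLPH-CKO against MAGI2-CKO gave 1 (21.2%), RHBDD2-CKO against MAGI2-CKO 1 (41.6%) and RHBDD2-CKO against MLPH-CKO 6 (37.0%). TJP1 differed in 7 of all 10 pairs of groups, DLG5 in 6, MPP5 in 4, DLG3 in 3, DLG1 and MAGI3 in 1 each, and MAGI1 in 0. DLG5 was lower in RHBDD2-CKO than in C9orf89-CKO (log2 difference -0.53, adjusted p = 9.21e-05), and also than in MLPH-CKO (-0.47, adjusted p = 0.000191) and MAGI2-CKO (-0.50, adjusted p = 9.42e-05). From low to high the order of DLG5 was RHBDD2-CKO, Non-target, MLPH-CKO, MAGI2-CKO and C9orf89-CKO, and among neighbours in it only Non-target and MLPH-CKO differed past the threshold.
For TJP1 the order was Non-target, C9orf89-CKO, RHBDD2-CKO, MAGI2-CKO and MLPH-CKO, from 6.45 to 10.3 FPKM on average. Only C9orf89-CKO and RHBDD2-CKO differed among neighbours in this order (log2 difference 0.26, adjusted p = 0.0151). The difference between RHBDD2-CKO and MAGI2-CKO was 0.12 (adjusted p = 0.205) and that between MAGI2-CKO and MLPH-CKO 0.16 (adjusted p = 0.147).
MPP5 was higher in MAGI2-CKO than in MLPH-CKO (log2 difference 0.44, adjusted p = 0.00202) and C9orf89-CKO (0.30, adjusted p = 0.0219), and higher in RHBDD2-CKO than in MLPH-CKO (0.25, adjusted p = 0.0337). DLG3 was lower in RHBDD2-CKO than in C9orf89-CKO (log2 difference -0.40, adjusted p = 0.0339) and MLPH-CKO (-0.40, adjusted p = 0.0256). DLG1 and MAGI3 were both higher in RHBDD2-CKO than in MLPH-CKO, by 0.36 on the log2 scale each (adjusted p = 0.0101 and 0.0387). No pair of neighbours in the order of MAGI1, MAGI3, DLG1, DLG3 or MPP5 passed the threshold.

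The fold changes of the scaffold genes were set beside those of the 100 tested genes nearest to each on its chromosome. DLG5 rose where its neighbours on chromosome 10, over 17.5 megabases, lay higher as well. Their median log2 fold change was 0.33 in C9orf89-CKO with 47 of the 100 past the threshold upward, 0.31 with 48 in MLPH-CKO, and 0.29 with 45 in MAGI2-CKO. In RHBDD2-CKO, where DLG5 itself was at -0.07, the median of its neighbours was -0.08.
The neighbours of TJP1 on chromosome 15, over 18.4 megabases, had a median of 0.44 in MAGI2-CKO and 0.46 in MLPH-CKO, with 48 of 100 raised in each. In RHBDD2-CKO, where TJP1 rose by 0.39, the median of its neighbours was 0.04, with 22 raised and 8 lowered. TJP1 lay above 73 of the 100 there.
The neighbours of MPP5 on chromosome 14 had a median of 0.34 in MAGI2-CKO, beside 0.31 for MPP5 itself, and medians of 0.01 to 0.05 in the other clones. Over the 20 nearest genes the median around MPP5 was 0.15 in C9orf89-CKO and 0.07 in RHBDD2-CKO. The neighbours of MAGI1 on chromosome 3, over 27.6 megabases, had a median of -0.40 in MAGI2-CKO (MAGI1 itself -0.20), -0.34 in C9orf89-CKO (MAGI1 -0.32), -0.33 in MLPH-CKO (MAGI1 -0.26) and -0.25 in RHBDD2-CKO (MAGI1 -0.06).
The tested genes nearest to MAGI2 on chromosome 7, over 23.9 megabases around the guide's site, had a median of -0.54 in MAGI2-CKO, with 61 of 100 lowered and 3 raised. That median was between -0.03 and 0.07 in the other clones.
DLG3 in RHBDD2-CKO, at -0.49, lay below the lower quartile of its neighbours on the X chromosome (-0.37, with a median of -0.03). Of the 28 pairings of gene and clone, 26 lay between the quartiles of their neighbours, among them 7 of the 8 that passed the threshold. TJP1 in RHBDD2-CKO is counted there, at 0.39 beside a median of 0.04 and an upper quartile of 0.45. The same share over all tested genes was not computed, so these counts do not set the scaffold genes apart from other genes. The part of the neighbours' shift in the changes of the scaffold genes was not tested, and the copy number of these regions was not measured.

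**Figure D3:**
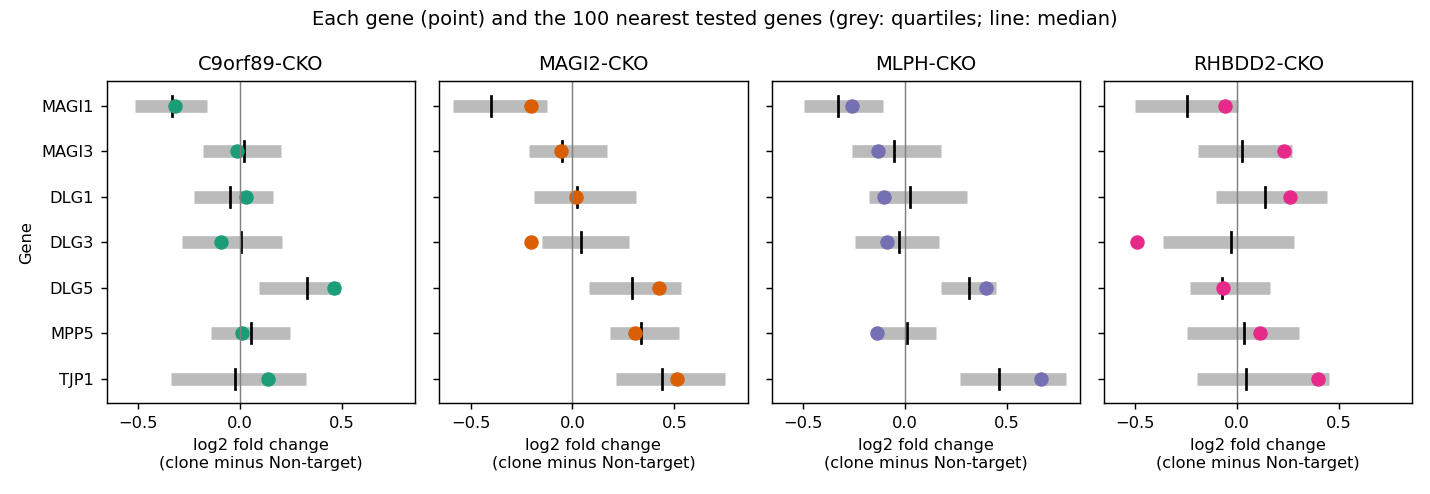
Log2 fold change against Non-target (x axis) of each tested scaffold gene (point, y axis) in the 4 clones, with the median (black line) and quartiles (grey bar) of the 100 nearest tested genes on its chromosome. DLG5, MPP5 and TJP1 in MAGI2-CKO lie within bars centred at 0.29, 0.34 and 0.44, and DLG3 in RHBDD2-CKO lies left of its bar.

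For each tested scaffold gene, the gene of at least 1 FPKM on average whose level was most alike over the 15 libraries was looked up, as a description. It was UBR1, a ubiquitin ligase gene also on chromosome 15, for TJP1 (Pearson r = 0.98), and TTLL5, a tubulin glutamylase gene also on chromosome 14, for MPP5 (r = 0.92). For DLG5 it was CCDC116 on chromosome 22 (r = 0.96), a gene at 0.212 FPKM in Non-target and 0.142 in RHBDD2-CKO but 1.92 to 2.38 in the 3 clones where DLG5 was raised. For MAGI3 it was LRRFIP1 (r = 0.98), for DLG3 HSBP1 (r = 0.97), for DLG1 STRN3 (r = 0.92) and for MAGI1 DDX55 (r = 0.87). These correlations share the libraries, and so also their depth and the difference of replicate 1.

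Related genes were counted by direction. Unlike the scaffold genes, they were not set beside their neighbours on the chromosome. The part of a shift shared with such neighbours in their changes was not tested. Of all tested genes, 12.9% were higher and 13.1% lower than Non-target in C9orf89-CKO, 17.0% and 19.1% in MAGI2-CKO, 14.5% and 15.5% in MLPH-CKO, and 17.4% and 16.7% in RHBDD2-CKO. These shares without the replicate 1 libraries were 15.2% and 17.2%, 18.7% and 21.7%, 16.6% and 20.3%, and 19.8% and 22.2%, in the same order. Of 14 other MAGUK genes 9 were tested, and 2 were higher and 1 lower in C9orf89-CKO. MLPH-CKO had 2 and 0, MAGI2-CKO 1 and 1, and RHBDD2-CKO 0 and 1. Their median log2 fold change was 0.22 in MLPH-CKO, 0.16 in MAGI2-CKO, 0.11 in C9orf89-CKO and -0.01 in RHBDD2-CKO. Without the replicate 1 libraries the counts were 3 and 2 in MAGI2-CKO and 3 and 0 in MLPH-CKO, and the same as before in the other clones. MPP1, a scaffold first known from the red cell membrane, went from 9.93 ± 0.263 FPKM in Non-target (SD, n = 3) to 6.13 ± 0.157 in C9orf89-CKO (log2 fold change -0.69, adjusted p = 2.17e-05). RHBDD2-CKO held 6.13 ± 0.108 FPKM (-0.69, adjusted p = 1.57e-05). MPP7, a partner of DLG1 at junctions, rose by 0.57 in C9orf89-CKO (adjusted p = 0.000837) and by 0.64 in MLPH-CKO (adjusted p = 0.000305), and MPP2 rose by 0.37 (adjusted p = 0.0119) and 0.46 (adjusted p = 0.00279) in the same clones. MPP6 fell by 0.42 in MAGI2-CKO (adjusted p = 0.000240).

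Among the polarity complex genes, 17 of 19 were tested, and RHBDD2-CKO had the most past the threshold, 10 higher and 2 lower. The median log2 fold change was 0.33 there. MLPH-CKO had 6 higher and 3 lower, C9orf89-CKO 5 and 2, and MAGI2-CKO 4 and 2, with medians of 0.13, 0.01 and 0.05. Without the replicate 1 libraries the counts were 9 and 2 in RHBDD2-CKO, 6 and 4 in MLPH-CKO, 4 and 4 in C9orf89-CKO and 3 and 3 in MAGI2-CKO. LLGL1, a partner of Scribble and DLG in the basolateral module, rose in all 4 clones. It was measured at 16.8, 25.3 and 24.4 FPKM in Non-target. RHBDD2-CKO held 32.6, 45.4 and 45.6 FPKM, C9orf89-CKO 38.5, 48.6 and 50.1, MLPH-CKO 40.1, 52.2 and 54.7, and MAGI2-CKO 44.9, 58.0 and 62.3. The LLGL1 value of replicate 1 was the lowest in every group, and all clone wells still lay above all Non-target wells. Its log2 fold change was 0.90 in RHBDD2-CKO (adjusted p = 0.00340) and 1.05 to 1.32 in the other clones (adjusted p = 0.00156 or less).
PARD3, the core scaffold of the apical PAR complex, rose from 6.24 ± 0.365 FPKM in Non-target to means of 7.64 in RHBDD2-CKO and 9.04 to 9.67 in the other clones (adjusted p = 0.00428 or less). Its partners PARD6B and PRKCZ, an adaptor and an atypical protein kinase C, rose in all 4 clones too, PARD6B by 0.40 to 1.03 and PRKCZ by 0.37 to 0.69 on the log2 scale. PARD6B missed the threshold in MAGI2-CKO without the replicate 1 libraries, at 0.34 (adjusted p = 0.147, limma), while LLGL1, PARD3 and PRKCZ passed it in all 4. MPDZ, a multi-PDZ protein of tight junctions, fell in all 4, from 4.53 ± 0.762 FPKM to means of 2.87 to 3.13 (adjusted p = 0.00770 or less). LIN7C, which binds MPP5 and CASK, fell by 0.80 in MLPH-CKO (adjusted p = 7.66e-06) and rose by 0.30 in RHBDD2-CKO (adjusted p = 0.00790).

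Of 28 junction membrane and plaque genes 21 were tested. MAGI2-CKO had 2 higher and 10 lower, C9orf89-CKO 2 and 6, MLPH-CKO 3 and 5, and RHBDD2-CKO 6 and 3. Without the replicate 1 libraries these counts were 1 and 10, 2 and 7, 3 and 6, and 5 and 5. The median log2 fold change was -0.30 in MAGI2-CKO, -0.09 in MLPH-CKO, -0.02 in C9orf89-CKO and 0.03 in RHBDD2-CKO. MARVELD2, or tricellulin, a protein of the points where 3 cells meet, rose in all 4 clones, most in RHBDD2-CKO. It went from 0.652 ± 0.129 FPKM in Non-target to 3.83 ± 0.142 in RHBDD2-CKO, a log2 fold change of 2.40 (adjusted p = 9.61e-08). Its smallest rise, 0.53 in MAGI2-CKO (adjusted p = 0.00954), became 0.45 with the replicate 1 libraries left out and then missed the threshold (adjusted p = 0.0786). AMOT, an angiomotin that binds MAGI proteins and Hippo pathway components, was the most abundant of the named junction genes. It was measured at 168, 128 and 150 FPKM in Non-target, at 84.9, 75.5 and 69.4 in C9orf89-CKO and at 73.3, 72.4 and 70.1 in MAGI2-CKO, and it fell by 0.95 and 1.04 on the log2 scale (adjusted p = 1.38e-05 and 3.67e-06). It also fell in MLPH-CKO, by 0.43, and in RHBDD2-CKO, by 0.65. CDH2, or N-cadherin, fell in all 4 clones as well, from 23.6 ± 1.14 FPKM to means of at most 16.8 (adjusted p = 8.85e-06 or less). NECTIN3 fell by 0.58 in MLPH-CKO, 0.54 in MAGI2-CKO and 0.49 in C9orf89-CKO (adjusted p = 0.000816 or less), CLDN12 by 0.67 in MAGI2-CKO (adjusted p = 1.51e-05) and AMOTL2 by 1.15 in RHBDD2-CKO (adjusted p = 6.35e-05).

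Of 16 binding partners of the scaffolds 13 were tested. RHBDD2-CKO had 3 higher and 5 lower, MLPH-CKO 2 and 4, MAGI2-CKO 3 and 2, and C9orf89-CKO 3 and 1. Without the replicate 1 libraries these counts were 5 and 5, 2 and 3, 3 and 2, and 2 and 1. Their median log2 fold change was -0.01 in RHBDD2-CKO, -0.15 in MLPH-CKO, 0.06 in MAGI2-CKO and 0.02 in C9orf89-CKO. ADGRB1, an adhesion G protein-coupled receptor that binds MAGI PDZ domains, moved in opposite directions. It was measured at 1.10, 1.20 and 0.984 FPKM in Non-target, at 2.24, 2.99 and 2.98 in MAGI2-CKO and at 0.0150, 0.0562 and 0.0418 in RHBDD2-CKO. It rose by 1.24 on the log2 scale in MAGI2-CKO (adjusted p = 0.000106), fell by 3.13 in RHBDD2-CKO (adjusted p = 5.20e-08) and fell by 0.63 in MLPH-CKO (adjusted p = 0.0142). RAPGEF2, a Rap activator that binds MAGI2, rose by 0.93 in RHBDD2-CKO (adjusted p = 6.08e-06), from 2.10 ± 0.266 to 4.07 ± 0.0552 FPKM. It also rose in C9orf89-CKO, by 0.27 (adjusted p = 0.0343). APC, a DLG partner of the Wnt pathway, rose by 0.86 in RHBDD2-CKO (adjusted p = 3.73e-05), 0.42 in C9orf89-CKO and 0.39 in MAGI2-CKO. DLGAP4, which binds the guanylate kinase domain of DLG proteins, fell in all 4 clones, by 0.36 to 0.60. KIF13B, a kinesin that carries DLG1, fell by 0.61 in MAGI2-CKO (adjusted p = 0.00113) and by 0.34 in MLPH-CKO (adjusted p = 0.0402). The latter was -0.27 with the replicate 1 libraries left out (adjusted p = 0.193). The Notch ligand gene DLL1 rose by 0.70 in MLPH-CKO (adjusted p = 0.00124) and by 0.40 in RHBDD2-CKO (adjusted p = 0.0283).

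**Figure D4:**
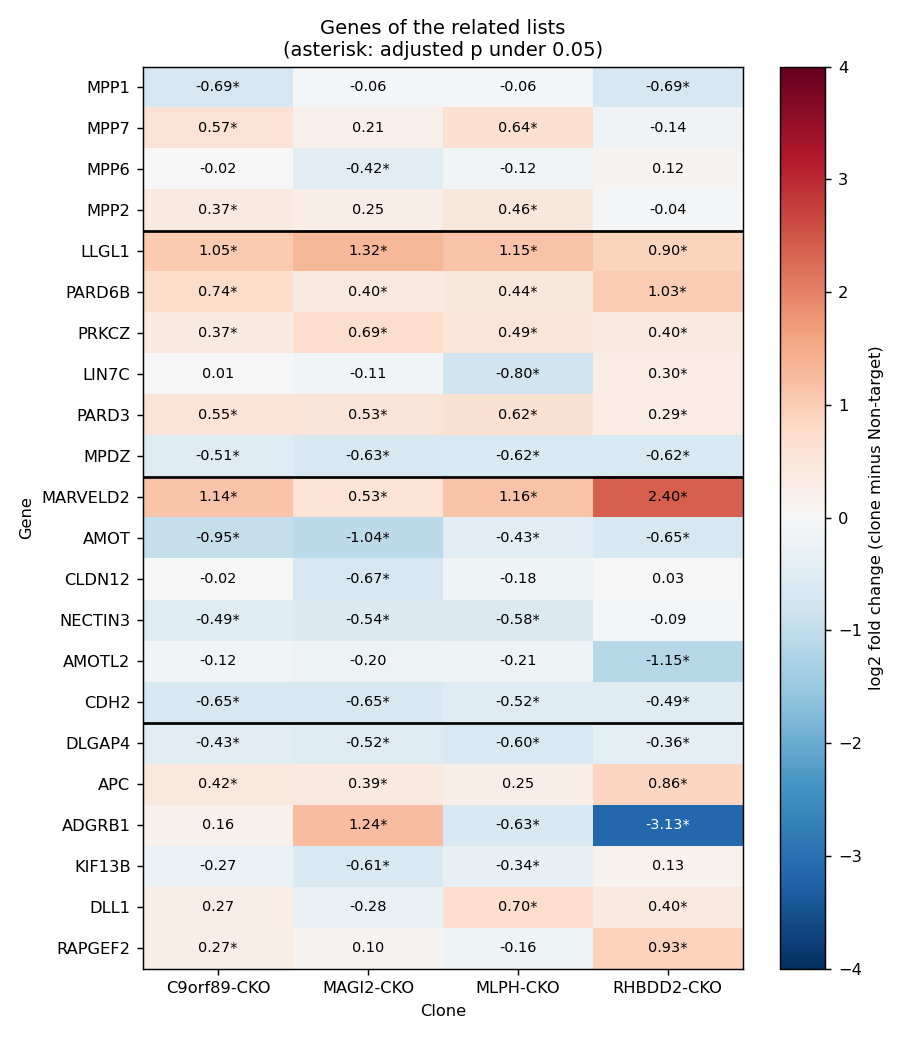
Log2 fold change against Non-target of the named genes of the related lists (rows; from the top: other MAGUK genes, polarity complex genes, junction genes, binding partners) in the 4 clones (columns), from blue for lower to red for higher, with an asterisk for an adjusted p under 0.05. LLGL1, PARD6B, PRKCZ, PARD3 and MARVELD2 are red in all 4 columns, and MPDZ, AMOT, CDH2 and DLGAP4 are blue in all 4.

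The labelled cell line was checked by 8 marker genes, and all 8 passed the filter. No library of another cell line was at hand, so passing the filter does not by itself tell HEK293T from other lines. VIM was the most abundant of them in every library, from 40.1 to 87.9 FPKM. The level of the markers differed between clones. In RHBDD2-CKO 6 of the 8 were lower and 0 higher, and their sum was 75.3 to 83.5 FPKM against 131 to 134 in Non-target. NEFL, a neurofilament gene, was measured at 16.8, 20.5 and 19.1 FPKM in Non-target and at 0.903, 0.914 and 1.14 in RHBDD2-CKO. NEFM, its partner, was measured at 38.4, 21.4 and 21.8 FPKM in Non-target but at 0.0705, 0 and 0.0117 in MAGI2-CKO. NEFM was also lower in RHBDD2-CKO, with a mean of 1.34 FPKM and a log2 fold change of -4.23. MLPH-CKO had 4 of the 8 markers higher and 1 lower, MAGI2-CKO 3 and 2, and C9orf89-CKO 2 and 2. Without the replicate 1 libraries the counts were 3 and 2 in MLPH-CKO and 2 and 3 in C9orf89-CKO, and the same as before in the other clones. Their sum was 139 to 142 FPKM in C9orf89-CKO, 119 to 133 in MAGI2-CKO and 169 to 175 in MLPH-CKO. The part of these marker differences in the changes of the scaffold genes was not tested. CDH2 stands in both the marker list and the junction list.
Markers of leukemic myeloid and mesenchymal stromal cells were checked as well, and those of the pancreatic cancer lines in the study's co-cultures were not. Of 8 leukemic myeloid markers 0 passed the filter, their sum was 0.179 to 0.629 FPKM per library, and MPO was at 0 in all libraries. The most abundant of them in any library was SPI1, at 0.398 FPKM. Of 8 mesenchymal stromal markers only COL1A1 passed the filter, at 2.24 to 5.42 FPKM, and it was the most abundant of them in every library. COL1A1 rose in the 3 clones other than RHBDD2-CKO, by 0.74 to 0.93 (adjusted p = 0.00739 or less), and without the replicate 1 libraries it was past the threshold in all 4 clones. The list summed to 3.04 to 5.69 FPKM per library. Of the other stromal markers only LUM and NT5E reached 0.5 FPKM, in wells of Non-target, and COL1A2 was at most 0.00558 FPKM. The part of these markers in the results was not tested. In bulk RNA a change in the number of cells of a type and a change in the RNA per cell cannot be told apart.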

How the data were processed

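Total RNA was extracted from HEK293T cells and sequenced, per the methods, as 15 mRNA libraries, 5 groups of 3 wells. The authors deposited 1 table per library with 1 value for each of 58735 genes, read here as FPKM. Per the labels the libraries were made with the NEBNext Ultra RNA kit, and the submitters' processing notes name HISAT2 2.0.5, featureCounts 1.5.0-p3 and DESeq2, without their roles. The genome build is not given in the sources used here, and the identifiers and exon lengths match GENCODE v29 (GRCh38). Multiplied by exon length, 100% of the values were whole multiples of 1 step per library, which gave the fragments. The steps fit fragments per kilobase scaled by median-of-ratios size factors, so that a change in total RNA per library is not kept.

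Groups were taken from the labels. The 16175 genes that reached 0.5 FPKM in 3 or more libraries were fitted on log2(FPKM + 0.1) with limma 3.58.1 in R 4.3.3, with 5 group terms over all 15 libraries, eBayes with a trend, and Benjamini-Hochberg adjustment within each contrast at 0.05. MAGI2 was compared by a two-sided exact permutation test. The fit was tested on simulated data, where it returned fold sizes with little bias on average but missed most changes in genes under 1 FPKM. Its criterion for the number recovered was not met at first and was replaced after that outcome was seen, so calls missing in genes near 1 FPKM carry little weight. The nearest 100 tested genes were taken by distance between gene midpoints. The guide was matched to exons of GENCODE v29 transcripts.

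The genes and lists were chosen with earlier results of these data known. Named from each list were the genes past the threshold in 1 direction in all 4 clones, and per clone the 2 with the largest change among those called with a mean of at least 1 FPKM. Alternatives were pseudocounts of 1 and 0.01, no filter (32715 genes), a floor of 1 FPKM on the mean (12533 genes), quantiles made equal, no trend, the 6 contrasted libraries only, a replicate block, voom on the recovered fragments, 20 neighbours in place of 100, and each library left out. Leaving out all 5 libraries numbered 1 was added after seeing the data. Python 3.11.15 with pandas 2.3.3 and scipy 1.17.1 did the remaining work.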

Additional observations from a re-analysis of the deposited data

How the results depend on the processing

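Under all 25 alternatives the rises of DLG5 in 3 clones and of TJP1 in 3 clones stayed past the threshold. MPP5 in MAGI2-CKO missed it without replicate 2 of Non-target (adjusted p = 0.0510, limma), and DLG3 in RHBDD2-CKO with only the 6 libraries contrasted (adjusted p = 0.0525). The number of scaffold genes called was then 1 in RHBDD2-CKO. Leaving out 1 library at a time gave 1 to 2 genes in C9orf89-CKO (MAGI1 added without replicate 2 of Non-target or replicate 1 of C9orf89-CKO), 2 to 3 in each of the other clones (MAGI1 added in MLPH-CKO without replicate 2 of Non-target, and DLG1 in RHBDD2-CKO without replicate 3 of Non-target, 3 of MAGI2-CKO, 1 of MLPH-CKO or 2 of RHBDD2-CKO), and 10 to 15 of the 42 pairings between clones. No filter gave 11 of the 42. DLG1 in RHBDD2-CKO also passed with the floor of 1 FPKM (adjusted p = 0.0470) and with voom (adjusted p = 0.0418). The level of MAGI2 in MAGI2-CKO was below Non-target in all 19 settings, by 0.06 to 0.70 on the log2 scale, never past the threshold (adjusted p from 0.0847 to 0.391). All fold changes that turned sign were near 0 and not called. Quantile normalization gave -0.000405 for DLG1 and -0.00864 for MPP5 in C9orf89-CKO. With 1 library left out, MAGI1 in RHBDD2-CKO ranged from -0.17 to 0.037. In C9orf89-CKO the range was -0.12 to 0.089 for MAGI3, -0.055 to 0.080 for DLG1 and -0.046 to 0.067 for MPP5. In MAGI2-CKO it was -0.16 to 0.046 for MAGI3 and -0.064 to 0.090 for DLG1. The cause of these changes was not tested. Of the 32 medians over neighbouring genes, 25 moved by more than their SD over wells with 20 neighbours in place of 100, by at most 0.15. With a pseudocount of 1, 14 moved so, by at most 0.14, and 15 without the libraries numbered 1, by at most 0.066. With 20 neighbours 6 turned sign, all within 0.03 of 0 with 100, and 1 did without the libraries numbered 1.

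The groups share replicate numbers, which were not taken to pair the wells in the main fit. Deviations from group means correlated above 0.1 in 12 of 30 same-number pairs, 10 of them of number 1. Among pairs of different numbers 2 of 60 did. The median correlation was 0.086 for the same number (lowest 0.0010) and -0.089 for different numbers. Of the 15 libraries, 11 correlated best with their own number. Wells of the same number thus deviated together, most clearly those of number 1, and the main fit leaves this out. A replicate block gave 4 genes in RHBDD2-CKO, 3 in MLPH-CKO, 3 in MAGI2-CKO, 2 in C9orf89-CKO and 20 of the 42 pairings between clones, where 43.5%, 38.9%, 44.3%, 35.4% and 36.0% of all tested genes or pairings were called. The calls added by the block were MAGI1, lower in C9orf89-CKO (adjusted p = 0.0152) and MLPH-CKO (adjusted p = 0.0378), and MAGI3 and DLG1, higher in RHBDD2-CKO (adjusted p = 0.00996 and 0.0373). Leaving out all 5 libraries numbered 1 was chosen after seeing the data. Of the calls of named related genes, 59 held in it and 3 did not (MARVELD2 and PARD6B in MAGI2-CKO, KIF13B in MLPH-CKO), while MPP2 and MPP7 were added in MAGI2-CKO. MAGI2 rests on 32 to 68 fragments per library, which limits the precision of its level.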
